A study of Mus musculus with 8 samples.

Results

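Distal regions of open chromatin that all 8 ATAC-seq libraries of mouse granulosa cells had in common were described. Intervals of the 8 deposited peak lists on chromosomes 1 to 19 and X that shared 1 bp or more were merged, which gave 98245 regions. A member was a merged region with a peak in all 8 lists and with its midpoint more than 10 kb from both ends of every protein-coding gene in the RefSeq annotation of GRCm38. The rule left 17637 regions, which were 47.4% of the 37189 regions held by all 8 lists and 17.95% of all merged regions. The members were chosen by presence in every list and by distance, so neither is a result here. In the data the label held as far as it goes: these are regions called in 8 of 8 lists, and 965 of them (5.47%) nevertheless held an annotated transcription start inside a gene or of a long non-coding RNA (lncRNA).

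In ATAC-seq, DNA that is free of tightly packed nucleosomes is fragmented and labelled by Tn5 transposase, so that a peak marks a stretch of chromatin that the enzyme could reach. Accessible sites far from genes are where enhancers, insulators bound by CTCF, unannotated promoters and starts of non-coding RNAs are usually found. Granulosa cells nurse the oocyte, make oestradiol under follicle-stimulating hormone (FSH), and switch to an ovulatory and then luteal programme after the surge of luteinising hormone (LH).

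All mice were 21 days old and received 5 IU of eCG (also called PMSG), which makes follicles grow. The LH experiment, in wild-type F1 mice of CBA and C57BL/6, had 2 libraries titled PMSG, from mice killed after 46 h, and 2 titled hCG, from mice given 5 IU of hCG, a stand-in for LH, and killed 6 h later. The PR experiment, in strain C.129S7(B6)-Pgrtm1Bwo/OmcJ, had 2 libraries of wild-type (WT) mice and 2 of mice lacking the progesterone receptor (KO), all after hCG. The Pgr allele is a constitutive knockout, not limited to granulosa cells, and each library pooled granulosa cells of 2 to 3 mice. Time tags of the LH libraries contradicted their titles: those titled hCG were tagged 0 h and those titled PMSG 6 h. The titles and source names were followed. Source names of the PR libraries read pre-ovulatory beside a tag of 6 h. Strain and experiment went together, so differences between the experiments cannot be told apart from strain or handling.

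**Figure D1:**
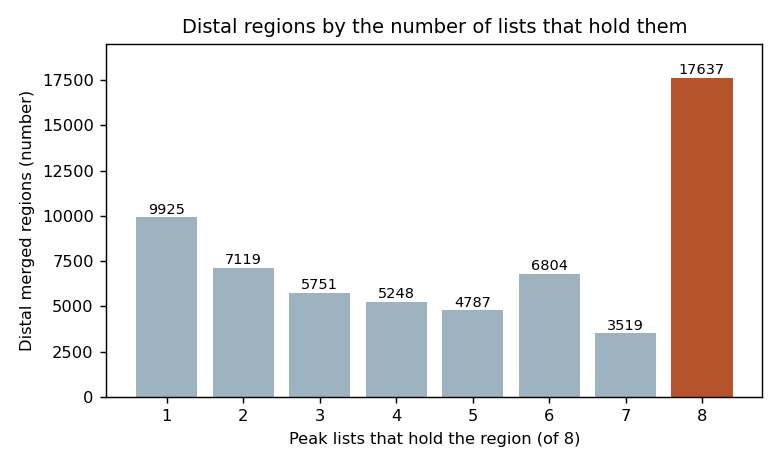
Bars give the number of distal merged regions (midpoint more than 10 kb from every end of a protein-coding gene) by the number of peak lists, of 8, that held them. The bar at 8 lists, 17637 regions, is the set described here and is taller than each of the other bars, of which the tallest is 9925 regions held by 1 list.

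Sequence was given for annotated transcription starts, as windows of 250 bases before to 50 bases after a start from RefSeq (GRCm38), read in the direction of the gene. The 6 windows printed here show inner or non-coding starts that lay in distal regions. Capitals mark the bases covered by a peak in all 8 lists. Cyp19a1 encodes aromatase, which makes oestradiol, and its inner start at chr9:54193694-54193993 (minus strand) lay at the edge of a member, with 44 of 300 bases common to all 8 lists.
Cyp19a1: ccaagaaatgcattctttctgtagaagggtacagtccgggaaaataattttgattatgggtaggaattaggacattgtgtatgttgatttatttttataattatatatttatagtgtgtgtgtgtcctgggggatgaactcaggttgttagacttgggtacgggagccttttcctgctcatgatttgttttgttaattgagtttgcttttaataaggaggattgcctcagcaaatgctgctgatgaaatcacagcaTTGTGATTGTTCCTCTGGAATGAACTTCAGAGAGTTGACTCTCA
Runx1 encodes a transcription factor induced in ovulatory follicles, and the window of its inner start at chr16:92697280-92697579 (minus strand) was covered whole.
Runx1: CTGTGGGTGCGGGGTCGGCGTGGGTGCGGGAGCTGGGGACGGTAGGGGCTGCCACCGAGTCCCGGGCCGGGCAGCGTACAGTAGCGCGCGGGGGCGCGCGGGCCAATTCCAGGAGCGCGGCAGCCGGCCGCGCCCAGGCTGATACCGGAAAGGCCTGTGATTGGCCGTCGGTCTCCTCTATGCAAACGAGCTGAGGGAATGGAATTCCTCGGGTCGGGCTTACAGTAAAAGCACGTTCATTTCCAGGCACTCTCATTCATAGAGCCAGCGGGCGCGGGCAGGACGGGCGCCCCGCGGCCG
Bmpr1b encodes a receptor for the bone morphogenetic proteins that oocyte and follicle cells exchange, and its window at chr3:141931539-141931838 (minus strand) was covered over 245 bases.
Bmpr1b: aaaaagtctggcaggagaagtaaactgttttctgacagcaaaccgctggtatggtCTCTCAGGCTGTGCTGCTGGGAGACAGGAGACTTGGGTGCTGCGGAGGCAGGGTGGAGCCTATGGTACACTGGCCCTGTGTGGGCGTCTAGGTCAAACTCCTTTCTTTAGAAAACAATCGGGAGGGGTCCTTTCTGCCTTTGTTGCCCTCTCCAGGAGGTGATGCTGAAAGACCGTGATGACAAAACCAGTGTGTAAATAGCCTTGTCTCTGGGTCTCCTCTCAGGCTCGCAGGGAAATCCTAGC
Adcy9 encodes an adenylyl cyclase, the enzyme class that makes cyclic AMP below the gonadotropin receptors, and its window at chr16:4420449-4420748 (minus strand) was covered whole.
Adcy9: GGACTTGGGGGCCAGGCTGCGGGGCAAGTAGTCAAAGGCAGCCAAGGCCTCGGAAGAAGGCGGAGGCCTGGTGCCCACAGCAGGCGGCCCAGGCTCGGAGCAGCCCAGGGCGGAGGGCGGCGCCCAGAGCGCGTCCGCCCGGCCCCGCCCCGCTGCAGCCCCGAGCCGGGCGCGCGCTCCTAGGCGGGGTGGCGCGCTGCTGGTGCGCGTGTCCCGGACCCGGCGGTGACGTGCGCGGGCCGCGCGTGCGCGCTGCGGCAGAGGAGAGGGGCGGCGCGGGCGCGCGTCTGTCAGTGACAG
Egf encodes epidermal growth factor, and its inner start at chr3:129725037-129725336 (minus strand) lay in the highest-ranked member with a coding start.
Egf: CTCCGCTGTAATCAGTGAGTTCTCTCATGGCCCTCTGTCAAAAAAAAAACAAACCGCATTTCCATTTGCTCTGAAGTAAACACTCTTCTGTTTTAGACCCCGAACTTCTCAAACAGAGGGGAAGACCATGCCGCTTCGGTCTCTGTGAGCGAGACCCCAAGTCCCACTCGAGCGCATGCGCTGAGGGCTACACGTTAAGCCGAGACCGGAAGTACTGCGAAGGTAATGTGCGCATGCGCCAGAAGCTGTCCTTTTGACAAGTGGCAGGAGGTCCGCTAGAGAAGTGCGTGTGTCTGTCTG
The lncRNA gene 4930555B11Rik, at chr2:57181581-57181880 (plus strand), was chosen for its high rank among members whose start window held an AP-1 match.
4930555B11Rik: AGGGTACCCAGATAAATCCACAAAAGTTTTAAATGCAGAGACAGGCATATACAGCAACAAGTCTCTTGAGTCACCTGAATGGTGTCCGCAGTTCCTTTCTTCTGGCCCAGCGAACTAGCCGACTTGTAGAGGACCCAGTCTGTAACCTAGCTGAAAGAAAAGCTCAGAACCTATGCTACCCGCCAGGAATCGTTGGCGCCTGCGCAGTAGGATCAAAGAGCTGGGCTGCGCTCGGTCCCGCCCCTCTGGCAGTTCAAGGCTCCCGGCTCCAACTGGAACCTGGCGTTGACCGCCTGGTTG

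The printed windows differed in base composition. Adcy9 had 78.3% GC with 42 CpG and Runx1 69.0% GC with 35 CpG, against 37.7% GC with 2 CpG in Cyp19a1. Bmpr1b had 6 CpG, 4930555B11Rik 13 and Egf 17. Short motifs were searched on both strands in all windows. One search was for TGACTCA for AP-1 together with TGAGTCA, which is the same word on the opposite strand. The word for RUNX was TGTGGTT. For NR5A it was CAAGGTCA, for GATA factors AGATAAG and for forkhead factors TGTTTAC. The core of the CTCF motif was searched as AGGTGGC, as the variant AGGGGGC and as the variant AGATGGC. No word contained another. AP-1 is the Fos and Jun dimer, NR5A1 and NR5A2 drive steroid synthesis genes, and GATA, RUNX and forkhead factors act in granulosa cells. Egf held a forkhead match 175 bases before its start and 4930555B11Rik an AP-1 match 184 bases before its start, and the other 4 windows held none of these words.

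Over all 1168 distinct windows whose start lay in a member, AP-1 words occurred in 93 (7.96%), against 5.20% of all 32412 windows in the table and 2.95% of the 11224 windows whose start lay in a gene-end region (held by all 8 lists, midpoint within 1 kb of a gene end). The share was 10.7% in the 580 lncRNA windows and 5.27% in the 588 coding windows of members. CTCF core words were in 22.3% of member windows, 21.6% of all windows and 28.8% of gene-end windows. RUNX words were in 5.05% of member windows against 5.29% of all, NR5A in 1.80% against 1.52%, GATA in 2.23% against 3.03% and forkhead in 4.45% against 3.67%. In gene-end windows the shares of these words were also lower than in member windows, with 3.04% for RUNX, 0.891% for NR5A, 1.28% for GATA and 2.14% for forkhead. At least 10 CpG were found in 54.2% of member windows, 43.9% of all windows and 91.1% of gene-end windows. These shares describe letters in 300 bases and are not binding sites. They cover only the minority of members with a start, and the sequence of the other members was not used here.

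The libraries held 55654 to 84313 intervals each on the chromosomes used, and 17807 to 18418 of them lay in members, between 21.8% of the list (WT replicate 2) and 32.4% (KO replicate 2). Read numbers are not in the lists, so the depth of each library is unknown. Peaks covered a gene end in all 8 lists for 4 of 8 granulosa markers (Foxl2, Fshr, Inha and Esr2), whereas Amh had 1 list and Cyp19a1, Hsd17b1 and Amhr2 none. The same held for 2 of 6 theca and stroma markers (Col1a2 and Ptch1), 0 of 8 endothelial markers, 0 of 8 immune markers and 1 of 8 oocyte markers (Gdf9). Among the markers of other cells, Cdh5 had a peak at an end in 7 lists, Tcf21 in 5, Kdr, Cyp17a1 and Cd68 in 2 each, and Pdgfra in 1. The part of other cells in any peak was not tested. In bulk libraries a peak that is weaker in each cell and one that fewer cells carry cannot be told apart.

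Distal regions were narrower than gene-end regions in every library. The median interval of a member was 583 and 573 bp in the hCG libraries, 469 and 462 bp in PMSG, 610 and 599 bp in WT, and 619 and 505 bp in KO. Gene-end medians ran from 847 bp in PMSG replicate 1 to 1064 bp in KO replicate 1, so the library medians of the 2 classes did not overlap. Members averaged 552.5 ± 64.0 bp and gene-end regions 983 ± 89.7 bp (SD, n = 8 libraries), a difference of -430 ± 29.7 bp (range -453 to -378) that was negative in 8 of 8 libraries. The exact two-sided permutation test over sign flips of the 8 differences gave p = 0.00781, the smallest this design allows, and 0.00781 after Benjamini-Hochberg adjustment over the 4 measures tested this way. The libraries share the same regions, so this p covers the spread between libraries only. Replicate pairs are labelled biological. The 7986 regions held by all 8 lists at 1 to 10 kb from a gene end were nearly as narrow as members, with medians of 623 and 613 bp in hCG, 485 and 483 bp in PMSG, 660 and 635 bp in WT, and 644 and 526 bp in KO. Narrow intervals were thus shared by regions away from gene ends and were not particular to members.

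Strength was described by rank. Within each list the best fold enrichment in a region (column 7, the authors' value at a summit over background) was ranked over the same 37189 regions, with 100 as the highest percentile. The median percentile of members was 44.8 and 45.3 in hCG, 41.4 and 41.7 in PMSG, 44.6 and 45.9 in WT, and 45.1 and 43.3 in KO. That of gene-end regions lay between 62.9 and 71.9. Members averaged 44.0 ± 1.68 and gene-end regions 66.7 ± 3.66, a difference of -22.7 ± 5.33 percentile points (SD, n = 8) in the same direction in 8 of 8 libraries (exact sign-flip permutation p = 0.00781, adjusted 0.00781). The regions at 1 to 10 kb ranked lower than members in 8 of 8 libraries, with medians of 38.1 to 40.1 against 41.4 to 45.9, a difference that was not tested. A rank below that of gene-end regions was therefore not particular to members either. By the -log10 q of the authors' caller (column 9) the distance between the classes was larger, with 37.7 ± 0.863 against 78.0 ± 1.87 (difference -40.4 ± 2.67, n = 8, exact permutation p = 0.00781). Regions with 2 or more summits made up 29.2 ± 5.65% of members and 38.6 ± 7.09% of gene-end regions (difference -9.34 ± 2.64 percentage points, n = 8, exact permutation p = 0.00781).

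**Figure D2:**
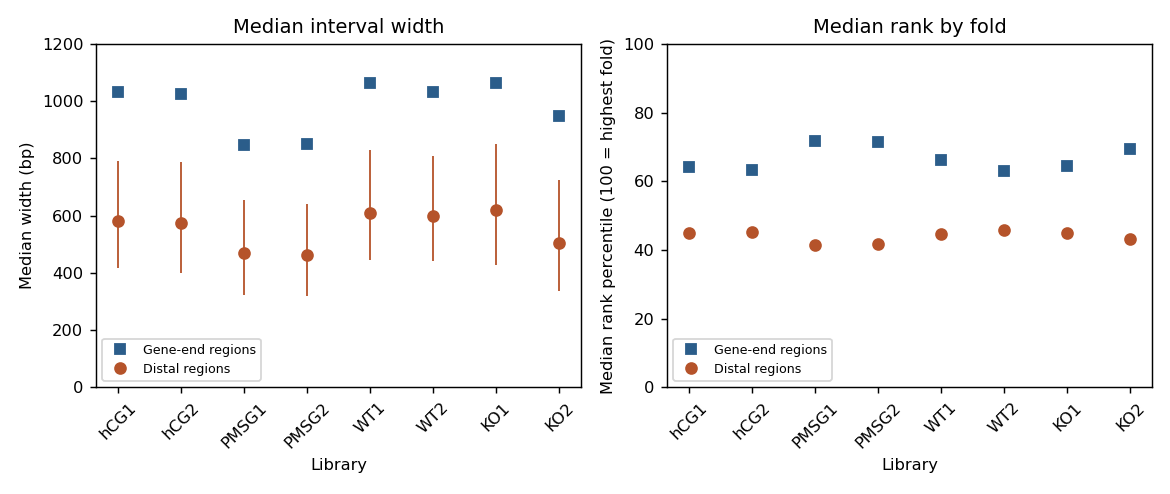
The left panel plots the median interval width in bp by library, with vertical lines from the lower to the upper quartile for distal regions; the right panel plots the median rank percentile of the best fold among the 37189 regions held by all 8 lists. Distal regions (circles) lie under gene-end regions (squares) in all 8 libraries, and the PMSG libraries have the lowest distal medians, 469 and 462 bp in width and 41.4 and 41.7 in rank.

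Members varied widely among themselves. The merged width ran from 171 to 3871 bp with a median of 743 bp (quartiles 565 and 982 bp), and the bases common to all 8 lists had a median of 341 bp. In 158 members no single base was covered by all 8 lists, and 15917 (90.2%) had exactly 1 interval in each list. By median interval, 5539 members were 300 to 500 bp and 8892 were 500 to 1000 bp wide, 1488 were 300 bp or narrower, and 249 were wider than 1500 bp. The 249 widest had a median percentile of 31.9 by fold and 65.9 by -log10 q, whereas the narrowest class had 32.7 and 21.0. Across the 17637 members, width and mean percentile had a Spearman correlation of 0.160 by fold and 0.492 by -log10 q, both read from the same peak calls. The order of the width classes differed between the 2 columns.

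The widest member, 3871 bp long at chr17:39842991-39846861, overlapped an end of the ribosomal RNA pseudogene Rn18s-rs5 and had a mean percentile of 1.12 ± 0.432 by fold (SD, n = 8 libraries). Its intervals were 3468 to 3838 bp in all 8 lists. The next were in Kdm6b, which encodes a demethylase of histone H3 lysine 27 (chr11:69408594-69412009), beside Tex44 (chr1:86439912-86443285), at an inner start of the transcription factor gene Rreb1 (chr13:37825145-37828040), and in Smim3. In Kdm6b the interval was 1412 and 1456 bp in the PMSG libraries and 3310 to 3390 bp in the other 6. Both hCG intervals were wider than both PMSG intervals in 57.5% of all members, beside 66.4% of all 37189 regions. In Rreb1 it was 2307 to 2891 bp in all 8. All 5 ranked low by fold, with mean percentiles of 1.12 to 12.1.

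The 5 highest ranks by fold belonged to regions with no interval wider than 695 bp. A region at chr8:20424302-20424969 (nearest coding gene Gm15319, 61.4 kb away, beside pseudogene Gm20584) had a mean percentile of 99.97, and a second at chr8:19784493-19785160 (nearest 4930467E23Rik, beside pseudogene Gm10060) had 99.94. A region at chr3:5860352-5860819, 282 kb from Pex2, had 99.89 and intervals of 441 to 468 bp in all 8 lists. A region near Mpp7 had 99.85. The region at chr4:55514620-55515314, 12.2 kb from Klf4, a zinc-finger factor of differentiating cells, had 99.75, with 98.96 to 99.95 in single libraries. Of the 177 members in the upper 1% by mean rank, 11 (6.21%) lay within 1 kb of an end of a pseudogene and 31 (17.5%) held an annotated start, against 0.856% and 5.47% of all members. Reads from near-identical copies can be placed on either copy, so the levels at pseudogenes and repeats are uncertain.

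The region in Rasal2, at chr1:157267851-157268262, and 4 of the regions just named were the least variable of the upper 10%. The percentile in Rasal2 was 99.7 and 100 in hCG, 99.2 and 99.5 in PMSG, 99.9 and 99.9 in WT, and 99.8 and 99.9 in KO. In all, 195 members (1.11%) were in the upper 10% in all 8 libraries, against 5.79% of gene-end regions, and 375 were in the lowest 10% in all 8. Shares over all 37189 regions are not given for these counts, so they are not read as traits of members. The SD of a member's percentile over the 8 libraries had a median of 11.4 points (quartiles 7.78 and 16.3), against 7.64 in gene-end regions.

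Members lay a median of 37.3 kb from the nearest end of a protein-coding gene (quartiles 19.9 and 80.0 kb). Of the 17637, 3429 (19.4%) were more than 100 kb away, 272 more than 500 kb and 48 more than 1 Mb. Width hardly differed with distance. The median interval was 561.5 bp at 10 to 20 kb, 562 bp at 20 to 50 kb, 562.5 bp at 50 to 100 kb and 565 bp at 100 to 500 kb, and 482 bp in the 272 members beyond 500 kb. The members with the largest distances were 2200 and 2192 kb from Pcdh17 and Pcdh20, which encode protocadherins. The first, at chr14:82243393-82244139, had percentiles of 78.4 and 72.8 in hCG, 24.7 and 13.5 in PMSG, 72.1 and 77.2 in WT, and 67.1 and 77.0 in KO. Its 2 PMSG values lay under the other 6.

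The limit of 10 kb cut through a continuum. Just inside it were regions in Pstpip1 (10001.5 bp), beside Bzw2 (10003 bp) and in Papss1 (10003 bp), with mean percentiles of 57.8, 52.7 and 28.3. Just outside were regions nearest to Slc41a1 (9997.5 bp), Rdm1 (9996 bp) and Gpr151 (9994 bp), with 54.3, 9.13 and 42.9.

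Most members were inside a gene. The midpoint lay inside 3788 different protein-coding genes for 9847 members (55.8%) and between them for 7790 (44.2%), of which 1853 lay inside a lncRNA gene. Regions inside genes had a median of mean percentiles of 41.6 and regions between genes 48.1, and their median widths were 557.5 and 567 bp. Within 1 kb of an end of a non-coding gene lay 1338 members (7.59%), and the nearest such gene was a lncRNA for 1075, a pseudogene for 127, a tRNA for 35, a miRNA for 27 and a small nuclear RNA for 25.

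Members that held an annotated start were wider and ranked higher than the rest. There were 513 with a start of a protein-coding gene (466 genes), 494 with a start of a lncRNA (507 genes) and 42 with both. Their median interval was 845.5 bp against 551 bp in the other 16672 members, their median of mean percentiles 53.4 against 44.0, and their median SD over libraries 8.73 against 11.6 points. Coding starts had 935.5 bp and the percentile 55.7, lncRNA starts 794 bp and 50.6. The start itself lay in bases covered by all 8 lists for 470 of 513 pairs of a member and a coding gene (91.6%) and 373 of 510 pairs with a lncRNA gene (73.1%).

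For the coding starts the values per library were as follows. The Egf region, chr3:129724826-129725654, ranked at 99.6 and 99.5 in hCG, 99.8 and 99.9 in PMSG, 99.5 and 99.3 in WT, and 98.9 and 98.9 in KO. All 8 values were 98.9 or higher. The Runx1 region, chr16:92696625-92698922, was 2298 bp wide and ranked at 26.1 and 21.1 in hCG, 44.2 and 40.0 in PMSG, 22.2 and 37.4 in WT, and 27.6 and 61.3 in KO. Both PMSG values were above both hCG values, and WT and KO overlapped. The Cyp19a1 region, chr9:54193323-54193828, ranked at 23.4 and 19.8 in hCG, 33.2 and 44.2 in PMSG, 15.2 and 9.79 in WT, and 21.3 and 43.8 in KO. Its PMSG values were above its hCG values by at least 9.71 points, and KO values above WT values by at least 6.08. A gap of any size toward PMSG was present in 33.7% of members and one toward KO in 14.7%, beside 40.7% and 15.2% of all 37189 regions.

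The Bmpr1b region, chr3:141931288-141931822, ranked at 34.5 and 33.7 in hCG, 59.3 and 60.3 in PMSG, 38.4 and 44.7 in WT, and 24.2 and 52.6 in KO. PMSG was again above hCG, and WT and KO overlapped. The Adcy9 region, chr16:4419079-4420885, had 54.7 and 48.2 in hCG against 63.1 and 62.9 in PMSG. The region of an inner start of Tcf7l2, a factor of Wnt signalling, at chr19:55895202-55895968, ranked between 87.6 and 97.8 in all 8 libraries, and that of Esr1, the oestrogen receptor alpha gene, at chr10:4709754-4710355, between 2.71 and 14.6. The non-coding 4930555B11Rik region, chr2:57181489-57182468, ranked at 91.2 or higher in all 8 libraries with intervals of 910 to 954 bp.

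Hairpins of 16 miRNAs overlapped members by 1 base or more, of 1005 hairpins in the RefSeq table on the chromosomes used. miRNAs pair with messenger RNAs mainly through the seed, bases 2 to 8 of the mature strand, which is in capitals in the sequences printed here from that table. They were chosen for what is known of them in the ovary or for a shared seed.
miR-202-5p: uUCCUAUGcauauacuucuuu
miR-503-5p: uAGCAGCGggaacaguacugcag
miR-26a-5p: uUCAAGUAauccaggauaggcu
miR-193a-3p: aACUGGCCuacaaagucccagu
miR-128-3p: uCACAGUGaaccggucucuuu
miR-344c-3p: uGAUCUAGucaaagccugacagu
miR-344-3p: uGAUCUAGccaaagccugacugu
The 2 miR-344 strands from Mir344c and Mir344-2 share the seed GAUCUAG, and their 5p strands share GUCAGGC. No other seed among the 26 mature strands of these hairpins occurred in more than 1 hairpin.

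Mir202, which is expressed mainly in gonads, lay in a member at chr7:139957676-139958503, 13.0 kb from Utf1, that ranked at 0.522 and 1.10 in hCG, 6.33 and 7.19 in PMSG, 1.72 and 1.64 in WT, and 1.33 and 0.401 in KO. All 8 values were in the lowest 10%, and the 2 PMSG values were the highest. Mir503, of a cluster on the X chromosome, lay in a member at chrX:53052406-53054253 with a mean percentile of 3.85. There, the interval was 672 and 519 bp wide in hCG and 1662 and 1732 bp in PMSG, with 1674 and 1549 bp in WT and 1087 and 1684 bp in KO. Both PMSG intervals were wider than both hCG intervals in 15.9% of all members, beside 10.8% of all 37189 regions. The Mir26a-1 member in Ctdspl ranked at 1.32 to 4.59 in all 8 libraries, and the Mir193a member at chr11:79710853-79712068 at 77.3 to 85.9. The Mir344-2 and Mir344c members, 408 and 511 kb from Ndn, had mean percentiles of 82.1 and 48.3.

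Genes with many distal regions around them included known regulators of granulosa cells. Over all 21631 protein-coding genes, 13610 (62.9%) had 1 or more members inside the gene or within 100 kb of it, with a median of 1 member and a median gene length of 17.3 kb. All 20 of 20 granulosa transcription factor genes had at least 1, with a median of 6 and a median length of 71.3 kb. Longer genes offer a larger window, and per 100 kb of that window the medians were 1.95 members for this list and 0.470 for all genes. They were 1.65 for signalling genes, 1.17 for steroid genes, 0.971 for LH-induced genes, 0.743 for theca and stroma, 0.710 for immune, 0.680 for endothelial and 0.242 for oocyte genes. By the rule no member has its midpoint within 10 kb of a coding gene end, so gene-dense windows have less room for members. These medians are not corrected for that, and the part of gene density in them was not tested. Nr5a2, whose product drives steroid synthesis genes and is needed for ovulation, had 12 members, 6 of them inside it. Runx1 had 11, Tcf7l2 11, Gata4 10 and Smad3, a carrier of activin and TGF-beta signals, 10. Cebpb, an intermediate of LH action only 1.52 kb long, had 9, and Nr5a1 had 7. Foxl2, which maintains granulosa identity, had 3, and Pgr had 1. Such counts include members inside or nearest to neighbouring genes, such as Psmb7 and Nr6a1 for Nr5a1, and Faim and Pik3cb for Foxl2.

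Members around 1 gene differed widely in rank. Around Nr5a2 their mean percentiles ran from 1.35 to 82.2 with a median of 21.5, and 6 of 12 had both hCG above both PMSG libraries by 10 points or more, against 2 in the other direction. The same gap was found toward hCG in 25.7% of all members and 17.4% of all 37189 regions, and toward PMSG in 18.8% and 19.2%. Around Gata4 they ran from 0.930 to 92.2. The single member near Pgr, 30.5 kb from it at chr9:8867527-8869359, ranked at 64.4 and 73.9 in hCG, 84.6 and 87.2 in PMSG, 77.5 and 79.3 in WT, and 44.9 and 71.6 in KO. PMSG was above hCG by at least 10.7 points, and WT above KO by 5.83 points. Gaps of any size were common, with 33.7% of all members higher in PMSG and 16.0% higher in WT, beside 40.7% and 12.9% of all 37189 regions. Peak calls near Pgr do not check the knockout labels, because the deleted part of the gene is not given in the sources used here.

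Hormone receptors and their signalling genes had members around 18 of 20, with a median of 5.5. Bmpr1b had 17, Adcy9 15, Igf1r, the receptor of insulin-like growth factor 1, 13, and Pde4d, which degrades cyclic AMP, 13. Fshr, the FSH receptor gene, had 7 and Lhcgr, the LH receptor gene, 5, and both counts include 1 region that lay within 100 kb of both genes. Inha, the inhibin alpha gene, and Fst, the follistatin gene, had 0. Inside Fshr the member at chr17:89011631-89011969 ranked at 95.6 and 97.4 in hCG, 15.5 and 19.8 in PMSG, 68.8 and 92.9 in WT, and 87.8 and 49.9 in KO. Another at chr17:89177701-89178511 stayed between 84.2 and 96.3 in all 8. The member shared by the 2 receptor genes, chr17:88885317-88886174, was 36.4 and 30.2 in hCG, 74.2 and 76.3 in PMSG, 26.0 and 23.1 in WT, and 37.4 and 57.1 in KO. It was higher in PMSG than in hCG by 37.8 points and in KO than in WT by 11.4, and a gap of 10 points toward KO was found in 2.19% of all members and 1.69% of all 37189 regions. The receptor genes had regions with gaps in both directions.

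Of the 10 steroid synthesis and cholesterol genes 9 had members, with a median of 2.5. Scarb1, the receptor that takes up high-density lipoprotein cholesterol, had 6, and Cyp19a1 and Cyp11a1, which encodes the side-chain cleavage enzyme, had 5 each. The 5 members around Cyp11a1 had mean percentiles of 1.86 to 27.9. In Cyp19a1 the member at chr9:54204163-54204983 ranked at 35.2 and 67.7 in hCG, 93.8 and 92.6 in PMSG, 87.8 and 50.6 in WT, and 66.6 and 77.2 in KO, with PMSG above hCG.

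All 15 of 15 LH-induced ovulatory genes had members, with a median of 2 and a median length of 19.03 kb. Adamts9 and Nrip1, the latter a nuclear receptor corepressor needed for ovulation, had 7 each. The member 19.5 kb from Adamts1, which encodes a matrix protease of the ovulating follicle, at chr16:85822277-85822862, ranked at 89.6 and 88.9 in hCG, 22.9 and 8.08 in PMSG, 85.7 and 95.9 in WT, and 94.6 and 86.3 in KO. The second member of Adamts1, chr16:85755924-85756954, was between 96.4 and 99.6 in all 8. Ptgs2, which encodes the prostaglandin synthase of ovulation, had a member 43.2 kb away at chr1:150151063-150151873 that ranked at 98.7 and 99.6 in hCG, 60.9 and 70.0 in PMSG, 97.5 and 99.7 in WT, and 99.5 and 97.7 in KO. In both regions the 2 PMSG libraries lay under the other 6. Other members of this list went the other way. Of its 44 members, 12 (27.3%) were higher in hCG by 10 points or more and 9 (20.5%) in PMSG. These shares stood beside 25.7% and 18.8% of all members. Areg and Ereg, which encode growth factors that carry the LH signal, share their 2 members.

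Genes that mark other cells also had distal regions around them. Theca and stroma genes had members around 6 of 6 (median 1.5), endothelial genes 6 of 8 (median 2), immune genes 5 of 8 (median 2) and oocyte genes 4 of 8 (median 0.5). The share of members called higher in hCG than in PMSG was 25.4% of 126 around granulosa transcription factors, 27.6% of 127 around signalling genes, 27.3% of 44 around LH-induced genes and 23.3% of 30 around steroid genes, beside 25.7% of all members. The share higher in PMSG was 20.6%, 23.6%, 20.5% and 16.7%, beside 18.8%. In the lists of other cells, 3 of 12 members around theca and stroma genes were higher in hCG and 2 in PMSG, 8 and 3 of 19 around endothelial genes, 4 and 2 of 13 around immune genes, and 2 and 1 of 7 around oocyte genes. Around the granulosa markers 5 of 29 were higher in hCG and 6 in PMSG.

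**Figure D3:**
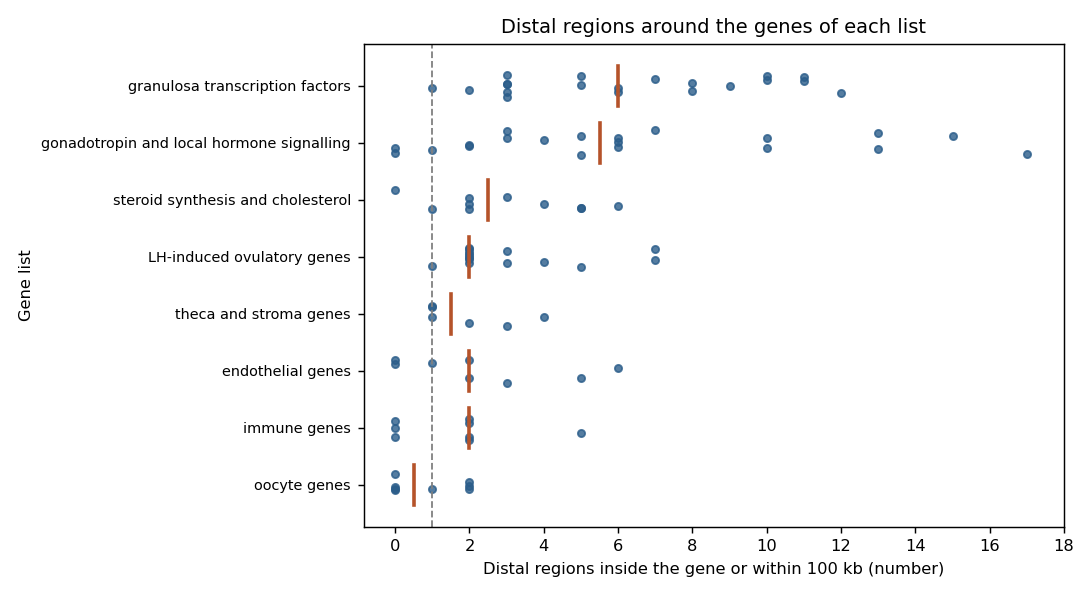
Each point is a gene, placed by the number of distal regions inside it or within 100 kb of it, with small vertical scatter for display; the short vertical lines are the medians of the lists and the dashed line is the median over all protein-coding genes, 1. Counts are not corrected for gene length or for the density of genes. Medians run from 0.5 for oocyte genes to 6 for granulosa transcription factors, and the farthest point is Bmpr1b with 17 regions.

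The genes with the most members were long. Sox5, a transcription factor gene 954 kb long, had 28, and Foxp1, Lpp, Maml3, Mast4, Nfia and Zbtb20 had 24 each, Itpr1 and Nav2 23 each, and Atxn1 22. Foxp1, Nfia and Zbtb20 encode transcription factors, and Itpr1 the receptor that releases calcium from the endoplasmic reticulum. Over these 10 genes, 4 to 9 members each were higher in hCG by 10 points or more (9 of 24 around Mast4) and 2 to 8 in PMSG (8 of 24 around Foxp1), beside 25.7% and 18.8% of all members. Per length of window the densest gene was Irf2bp2, a corepressor gene of 5.69 kb with 16 members within 100 kb and 0 inside, followed by E2f6 with 15. Both lists were picked by the counts they report.

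Many members had another close by. Chained at midpoints no more than 10 kb apart, 5726 members (32.5%) formed 2447 clusters, and 11911 stood alone. Most clusters, 1841, were pairs, and 43 had 5 or more. The longest chain, of 9 members over 51.9 kb at chr19:5786320-5838173, ran over Malat1 and Neat1, the genes of 2 abundant nuclear lncRNAs. Its members had a median of mean percentiles of 9.09, and 4 of 9 were called higher in PMSG and 0 in hCG, beside 18.8% and 25.7% of all members. Chains of 8 lay in Prkag2, a subunit gene of AMP-activated kinase (chr5:24974809-25011546), inside the lncRNA gene Firre, which escapes X inactivation (chrX:50590813-50623425), and over the lncRNA genes Gm14486 and Gm14488 (chr2:30676785-30726097). In Firre the median was 7.54 and 0 of 8 members were called in either direction between hCG and PMSG, a number too small to set against those shares. Chains of 7 lay in Clec16a, Tanc1, Dlgap1 and Arhgap23, among the 7 of that size.

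Ranks of distal regions moved between libraries more than those of gene-end regions. Across the 17637 members the Spearman correlation of percentiles was 0.944 between the hCG replicates, 0.924 between PMSG, 0.878 between WT and 0.805 between KO. Between hCG and PMSG libraries it was 0.521 to 0.552, whereas across the 11566 gene-end regions the same pairs had 0.845 to 0.875. The WT libraries, also after hCG, had 0.786 to 0.864 with hCG and 0.549 to 0.705 with PMSG, and the KO libraries 0.708 to 0.853 with hCG and 0.572 to 0.635 with PMSG. WT replicate 1 (0.683 and 0.705 with PMSG) and KO replicate 2 (0.628 and 0.635) were closer to PMSG than WT replicate 2 and KO replicate 1 (0.549 to 0.589). These points share the list they were called from, and KO replicate 2 also had the fewest intervals, 55654. They are a description without a test.

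**Figure D4:**
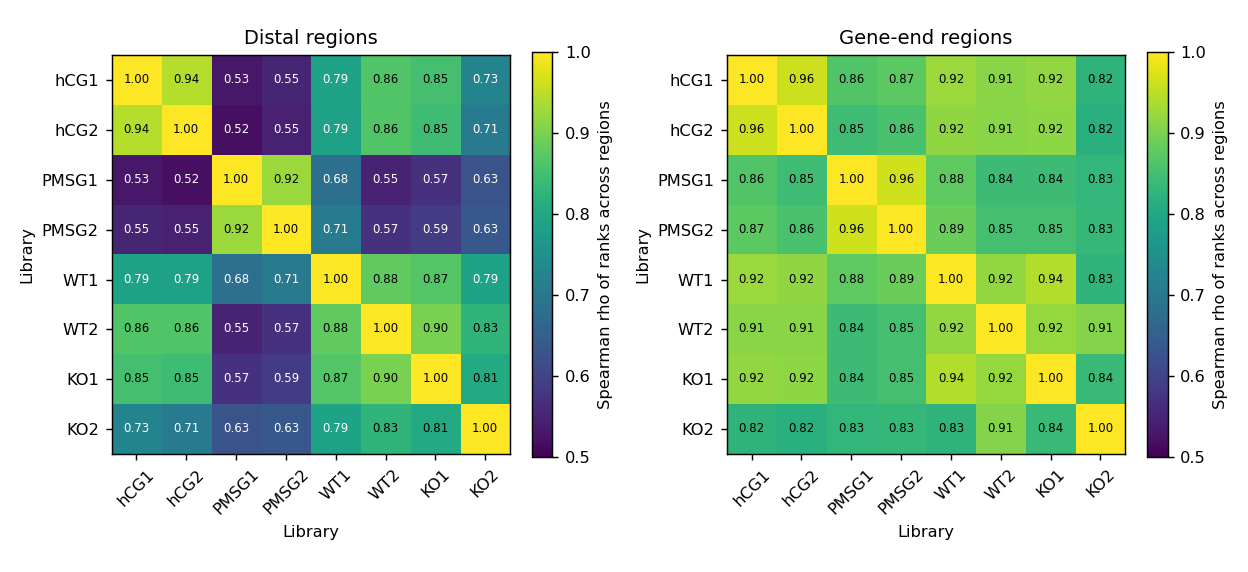
Heat maps of the Spearman correlation of rank percentiles between all pairs of the 8 libraries, across 17637 distal regions on the left and 11566 gene-end regions on the right, with the value in each cell and a colour scale from 0.5 to 1. The hCG and PMSG pairs have 0.521 to 0.552 across distal regions and 0.845 to 0.875 across gene-end regions.

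The first comparison between groups asked how ranks differ with the ovulatory stimulus. The median percentile of members was 45.1 ± 0.331 in hCG and 41.6 ± 0.202 in PMSG (SD, n = 2 each), a difference of 3.49 points with an exact two-sided permutation p of 0.333, the smallest that 2 against 2 allows. By column 9 ranks the difference was 0.852 points, with 37.5 in hCG and 36.6 in PMSG. Median widths were 578 ± 7.07 and 465.5 ± 4.95 bp (n = 2 each, exact permutation p = 0.333). Both differences by column 7 and width were larger than the spread between replicates, although this design cannot reach 0.05. Gene-end medians went the other way in rank, 63.8 in hCG and 71.6 in PMSG, and the percentiles share 1 scale, so one class cannot rise in rank without another falling.

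Single members were called where both libraries of one group lay above both of the other by 10 percentile points or more, which is a description and not a test. Of the 17637 members 4539 (25.7%) were higher in hCG, beside 17.4% of all 37189 regions, and 3310 (18.8%) were higher in PMSG, beside 19.2%. Gene-end regions had 5.09% and 20.5%. With no minimum gap 41.5% of members were higher in hCG and 33.7% in PMSG, beside 32.6% and 40.7% of all 37189 regions. Ranked among the members alone, an alternative added after the data were seen, the counts were 3956 and 4082, so the direction of the imbalance turned with the set that was ranked. Members without an annotated start were called higher in hCG in 26.5% and members with one in 12.2%. For PMSG the shares were 18.9% and 15.8%. The share higher in hCG was larger in each class of greater distance, from 23.1% at 10 to 20 kb to 28.2% at 100 to 500 kb and 32.4% in the 272 members beyond 500 kb, whereas that higher in PMSG was 17.9% to 20.1% in all 5 classes.

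The 5 largest gaps toward hCG were near Rad23b, Epb41l4a, Tbx20, Amelx and Dab2. The Rad23b region, chr4:55253727-55254272 and 96.0 kb away, ranked at 99.5 and 99.5 in hCG, 10.9 and 11.2 in PMSG, 99.5 and 96.9 in WT, and 99.7 and 61.5 in KO. The Dab2 region, 408 kb from that endocytic adaptor gene at chr15:5891782-5892615, had 93.3 and 92.0 in hCG, 8.78 and 4.24 in PMSG, 93.3 and 91.5 in WT, and 96.5 and 94.2 in KO, with intervals of 141 and 170 bp in PMSG and 601 to 834 bp elsewhere. In both, the PMSG libraries stood under the other 6. The Amelx region, inside Arhgap6 on the X chromosome, had 90.5 and 98.5 in hCG, 6.97 and 4.92 in PMSG, 73.6 and 73.6 in WT, and 30.8 and 21.2 in KO, so that it also separated WT from KO, by 42.8 points.

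Toward PMSG large gaps were in Nmnat2 and near Kcnj15, Chst3 and Zfp608. The Nmnat2 region, chr1:152980518-152981069, ranked at 8.74 and 8.56 in hCG, 99.5 and 97.7 in PMSG, 94.2 and 47.1 in WT, and 10.3 and 57.4 in KO. The Kcnj15 region, chr16:95208993-95209439, had 9.51 and 10.3 in hCG, 94.2 and 97.0 in PMSG, 89.5 and 25.5 in WT, and 23.9 and 64.7 in KO. In both, WT replicate 1 was near PMSG and WT replicate 2 was not. The Chst3 region, chr10:60245122-60245354, had 93.5 and 92.0 in PMSG and 0.987 to 11.5 in the other 6 libraries, and was 175 to 232 bp wide in all 8 lists.

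The PR libraries, which the hCG and PMSG calls did not use, ranked these members between the 2 groups. Members were picked for a gap between hCG and PMSG, and this choice alone favours middle values in libraries it did not use. For the 4539 members higher in hCG the medians were 69.1 and 69.0 in hCG and 26.0 and 28.1 in PMSG by construction, and 53.7 and 65.7 in WT and 62.7 and 51.6 in KO. A member's value was nearer to its hCG than to its PMSG mean for 60.9% and 82.1% of them in the WT libraries and 77.6% and 57.5% in KO. For the 3310 members higher in PMSG the medians were 40.6 and 30.8 in WT and 31.4 and 39.1 in KO, against 23.6 and 23.5 in hCG and 59.6 and 59.2 in PMSG, and 54.5%, 76.0%, 74.7% and 52.7% were nearer to hCG. WT replicate 1 and KO replicate 2 had the lowest shares in both sets, so that the 2 replicates of each genotype differed in how near they were to hCG. These shares were computed for called members only, so no share over all regions stands beside them.

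The second comparison asked what loss of the progesterone receptor changes after hCG. The median percentile of members was 45.2 ± 0.947 for WT and 44.2 ± 1.26 for KO (SD over 2 libraries). The difference of 1.07 points was within the spread between replicates (exact two-sided permutation p = 0.667, smallest possible 0.333), and by column 9 ranks it was -0.14 points. Median widths were 604.5 ± 7.78 bp in WT and 562 ± 80.6 bp in KO, where KO replicate 1 had 619 and KO replicate 2 had 505 bp (exact permutation p = 1). Gaps of 10 points or more were called for 603 members (3.42%) higher in WT, beside 2.38% of all regions, and for 386 (2.19%) higher in KO, beside 1.69%. Leaving out 1 library makes the call easier to meet. Without KO replicate 1 the counts were 3117 and 2347, and the lowest over the 4 omissions were 1364 and 956. Compared pair by pair by replicate number they were 1024 and 760, and ranked among the members alone 553 and 504. A gap of 20 points left 150 and 41, and by column 9 ranks the counts were 369 and 305. These alternatives were counted over members only, so no share of all 37189 regions stands beside them.

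The largest gaps toward WT were in Fam169a (nearest end Nsa2), Tpx2 and Phactr4 and near Cd180 and Pter. The region in Tpx2, the gene of a spindle protein, at chr2:152869044-152869702, ranked at 72.7 and 71.3 in WT and 6.18 and 8.70 in KO, with 61.3 and 56.5 in hCG and 48.0 and 43.8 in PMSG, so that the KO libraries were under the other 6. The Fam169a region, chr13:97105183-97105794, had 81.5 and 88.1 in WT and 17.5 and 17.4 in KO, and 57.4 to 90.2 in the LH libraries. Toward KO they were near Gja1 and Maf and in Micu3, Dysf and Maml3. The region 457 kb from Gja1, which encodes the gap junction protein connexin 43, at chr10:56846710-56847376, ranked at 6.36 and 11.5 in WT and 56.2 and 63.8 in KO, with 22.2 and 7.81 in hCG and 59.5 and 49.6 in PMSG. The Micu3 region, chr8:40320466-40321201, had 7.79 and 16.8 in WT, 54.7 and 61.7 in KO, and 15.9 to 36.0 in the LH libraries.

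**Figure D5:**
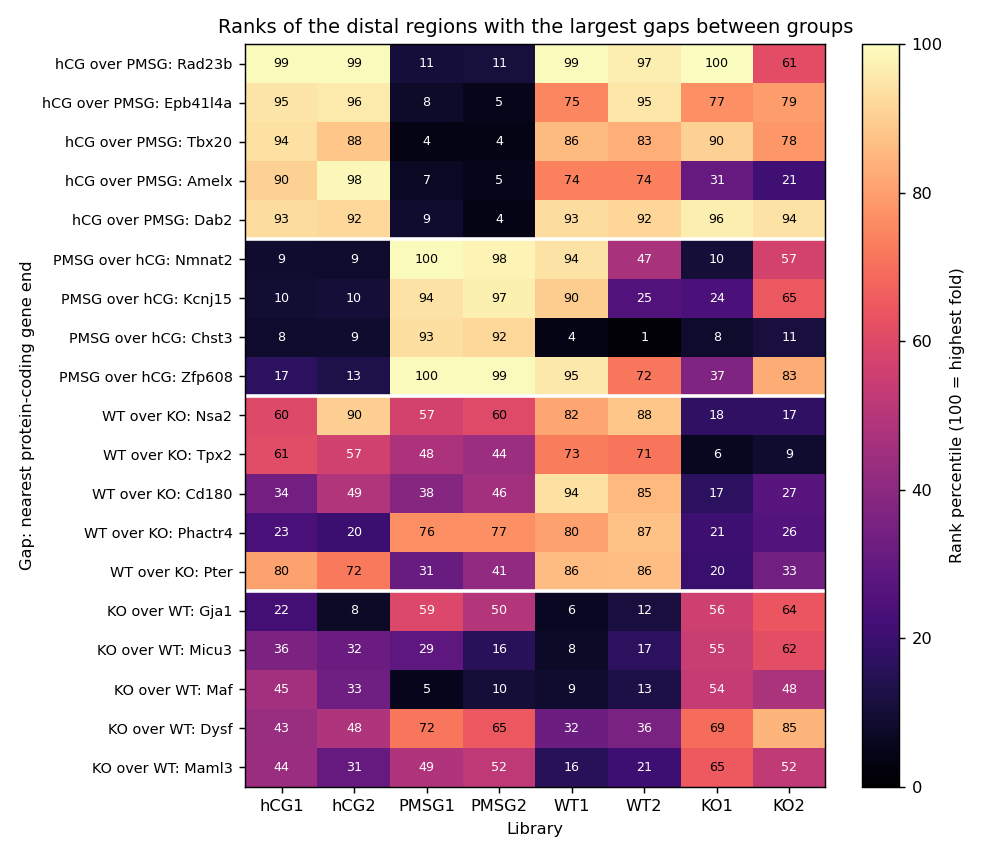
Rank percentiles (100 = highest fold among 37189 regions) of distal regions with the largest gaps in each direction of each comparison, by library, without 1 region that is not reported here; each row carries the nearest protein-coding gene end and white lines separate the 4 directions. In the top block the hCG libraries are at 88.2 to 99.5 and the PMSG libraries at 4.08 to 11.2, and in the third the KO libraries are at 6.18 to 33.4.

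In the LH libraries, which the WT and KO calls did not use, the 603 members higher in WT had medians of 49.1 and 53.3 in hCG and 49.5 and 49.7 in PMSG, against 62.5 and 60.8 in WT and 36.0 and 31.2 in KO. The 386 members higher in KO had medians of 40.1 and 38.6 in hCG and 43.1 and 42.6 in PMSG, against 31.6 and 33.5 in WT and 53.9 and 56.6 in KO. In both sets all 4 LH medians lay between those of WT and KO. Members were picked for a gap between WT and KO, and this choice alone favours middle values in libraries it did not use. The place of the LH medians is therefore no separate evidence.

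Width set the 2 experiments apart at a small number of members, a comparison made after seeing the data and without a test. At 44 members (0.249%) every interval of the PR libraries was at least 1.5 times as wide as every interval of the LH libraries, and at 12 (0.0680%) the reverse held. Over all 37189 regions held by all 8 lists the shares were 0.177% and 0.0645%, and over the 11566 gene-end regions 0.0432% and 0.0346%. In Slc4a8, a bicarbonate transporter gene, at chr15:100804930-100807150, intervals were 314 and 416 bp in hCG, 434 and 369 bp in PMSG, 2122 and 1511 bp in WT, and 2141 and 1982 bp in KO. In Bmpr1b, at chr3:142139023-142140291, they were 397 to 494 bp in the LH libraries and 1109 to 1244 bp in the PR libraries. The reverse was seen at Mir713, at chr13:62760110-62761043, with 934, 789, 716 and 697 bp in the LH libraries and 177, 176, 164 and 140 bp in the PR libraries. It was also seen at the highest-ranked member of all, beside pseudogene Gm20584, with 473 to 668 bp against 195 to 233 bp. Experiment, strain and processing cannot be told apart here.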

How the data were processed

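ATAC-seq peak lists of 8 libraries were used, 1 list per library and 2 libraries per group. Bowtie2, MACS2 and mm10 (the same assembly as GRCm38) are named in the submitters' processing notes, without versions or roles. Filters and any shift of reads for Tn5 are not given in the sources used here, and names in the PR lists alone carry a mark of duplicate marking. The lists deposited by the authors hold, per summit, a fold enrichment (a ratio), a -log10 p and -log10 q (never under 10), and a score that is 10 times the -log10 q. The score, the p and the summit offset were not used. No reads or signal tracks were analysed, so depth is unknown, and a rank within a list describes that library only.

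Unique intervals were merged at 1 bp of overlap. Folds were ranked within each list over the 37189 regions held by all 8. Gene ends, start windows and miRNAs came from RefSeq tables of GRCm38, with 21631 protein-coding genes. Gene lists were matched by symbol, and members were counted inside a gene or within 100 kb. Distal and gene-end regions were compared with exact two-sided sign-flip permutation tests over 8 libraries (smallest p 0.00781), and groups with exact permutation tests of 2 against 2 (smallest p 0.333). Members were named by fixed rules: the 5 highest, widest, farthest and least variable, 3 on either side of the limit, and the 5 largest gaps per direction. Of these, 1 region with a large gap, and 1 gene of the lists, are not reported here. Genes were named as those nearest to these, the 10 with the most members, those of the longest clusters and those of the lists. The start windows shown, the miRNAs and the densest genes were chosen after their values were seen. The members and lists were chosen with earlier results of these data known. Replicate numbers did not pair libraries in the labels, and the replicate differences of the 2 groups had correlations of 0.0354 and 0.0108 over 17637 members. Scripts used Python 3.11.15, pandas 2.3.3, numpy 2.4.6, SciPy 1.17.1 and matplotlib 3.10.9, and were tested on simulated data. Alternatives covered the overlap, thresholds, distances, rank column, gap and each library left out.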

Additional observations from a re-analysis of the deposited data

How the results depend on the processing

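Depth and the authors' filters are unknown, 2 libraries per group cannot reach p = 0.05, and strain, experiment and processing cannot be told apart. Beyond 50 kb, 6994 members were left, and leaving out 1 library gave 17666 to 18473. Distal regions stayed narrower and lower in rank than gene-end regions under every alternative run (regions at 1 to 10 kb, which ranked lower still, were not part of these), with differences without 1 library of -438 to -427 bp and -23.5 to -21.6 percentile points. A gap of 20 points left 2866 members higher in hCG, 1802 in PMSG, 150 in WT and 41 in KO. By column 9 ranks 369 members were higher in WT, and the median rank difference between WT and KO turned to -0.14 (exact permutation p = 1), while that between hCG and PMSG was 0.85. Without 1 library the counts were 5292 to 5485 (hCG), 4039 to 4119 (PMSG), 1364 to 3117 (WT) and 956 to 2347 (KO), since fewer samples had to be separated. With the replicate block, 1024 members were higher in WT and 760 in KO, and 5022 in hCG and 3709 in PMSG. The median rank differences do not depend on the block, so they could not change with it. For hCG against PMSG the exact sign-flip permutation p of that difference was 0.5 with the block. All these alternative counts are over members only. Ranked among the members alone, chosen after seeing the data, 49.2% of the calls between hCG and PMSG were higher in hCG, against 57.8%, and 52.3% of those between WT and KO were higher in WT, against 61.0%. Chained within 20 kb, 9131 members were in clusters. Apart from the construction named for the omitted libraries, the cause was not tested.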
